A study of Homo sapiens with 6 samples.

Results

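The GADD45 genes are 3 related stress-response genes, GADD45A, GADD45B and GADD45G, and GADD45GIP1 encodes a protein that binds their products. The 4 members were taken by gene symbol from the count files, which hold 24462 distinct symbols, and each of the 4 stood on 1 entry per file. The study compared H460 cells, an established human lung cancer line of large-cell origin, deprived of glutamine for 24 h (depleted, 3 libraries) with the same line in glutamine-replete medium (replete, 3 libraries). The line was cultured in RPMI 1640 with 10% fetal bovine serum, penicillin and streptomycin, and deprivation used RPMI 1640 lacking glutamine with 10% dialyzed serum. Which serum the replete cells had during those hours is not given, so the loss of glutamine and a change of serum cannot be told apart where the sera differed. The libraries were of the 3′ mRNA kind, whose reads lie near the poly(A) tail, so counts were not divided by transcript length.

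GADD45 proteins are small acidic proteins with no known enzyme activity that act by binding other proteins. They bind and activate the kinase MAP3K4, which feeds the p38 and JNK stress kinases, and they bind PCNA, the kinase inhibitor p21 and the CDK1–cyclin B1 complex, by which they can slow the cell cycle. GADD45A is known as a gene induced by DNA damage and amino acid limitation, GADD45B as a target of NF-κB and TGF-β signalling, and GADD45G as a gene induced by cytokines. GADD45GIP1, also called CRIF1, is not a GADD45 gene by sequence: its protein binds GADD45 proteins and is also a component of the large subunit of the mitochondrial ribosome.

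The libraries held from 7550849 to 10914899 counts, and levels are given as CPM, each count divided by its library's total and put on a common scale. A count of 0 allows up to 3 counts, which stood for 0.275 to 0.397 CPM. Such limits, and the counting intervals given here, take in counting error alone. Of the epithelial markers, KRT8, KRT18 and KRT19 were abundant and summed to 761 to 881 CPM in depleted and 2067 to 2092 CPM in replete libraries together with EPCAM and CDH1, which were both near 0. The 5 endothelial markers summed to at most 0.665 CPM, with VWF and CDH5 at 0, and the 6 blood markers to 4.61 to 9.35 CPM, most of it CD68. The 5 fibroblast markers summed to 11.1 to 26.9 CPM in 5 libraries and to 80.6 CPM in depleted replicate 3, mostly COL1A1, and their part in the results was not tested. In bulk RNA, fewer cells of a type and less RNA per cell cannot be told apart. Nothing in the labels says that the libraries of a group were from separate cultures. The p-values therefore measure only how far these samples spread, which may be technical.

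The 3 GADD45 genes were higher and GADD45GIP1 was lower after glutamine withdrawal, and the CPM ranges of the groups did not overlap for any of the 4. With edgeR's quasi-likelihood test all 4 members were under an adjusted p of 0.05, 3 rising and 1 falling. This count says little about the family, because 78.6% of all 12739 genes tested passed, 39.1% higher and 39.4% lower, and the ranges did not overlap for 81% of genes. The sizes of the changes differed widely among the members and are described in turn.

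GADD45A, the member first known from DNA damage, stood at 18.3, 13.5 and 16.0 CPM in replete replicates 1, 2 and 3 and at 918, 383 and 736 CPM in depleted replicates 1, 2 and 3. Every depleted library lay far above every replete one, but the depleted libraries differed among themselves, with replicate 2 the lowest. The mean rose from 15.9 ± 2.38 to 679 ± 272 CPM (SD, n = 3 per group), a ratio of 42.6. The log2 fold change after trimmed-mean scaling was 5.63 (SE 0.46, edgeR adjusted p = 0.000267), rank 79 from the top among the genes tested. Its level in replete cells was at percentile 52.1 to 58.0 of the genes detected in a library, and in depleted cells at percentile 97.1 to 99.1. A transcript of middling abundance had become one of the most abundant.

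GADD45B, first described in myeloid differentiation, stood at 34.9, 36.4 and 29.8 CPM in the replete and at 593, 601 and 621 CPM in the depleted libraries. The depleted libraries were nearly level with one another, and no library came near the other group. The mean rose from 33.7 ± 3.45 to 605 ± 14.8 CPM (SD, n = 3 per group), a ratio of 18.0, with a log2 fold change of 4.39 (adjusted p = 4.03e-13 in edgeR, SE 0.09) and rank 158 from the top. Its change was thus smaller than that of GADD45A and measured with a smaller error.

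GADD45G, the least abundant member, had 24, 24 and 8 counts in the replete and 95, 79 and 77 counts in the depleted libraries. These were 2.66, 3.03 and 1.06 CPM against 8.70, 9.05 and 8.88 CPM, so the groups were separate, and replete replicate 3 was the lowest. Its 8 counts have a 95% Poisson interval of 0.457 to 2.09 CPM, against 1.94 to 4.51 CPM for replete replicate 2. The mean rose from 2.25 ± 1.05 to 8.88 ± 0.173 CPM (SD, n = 3 per group), with a log2 fold change of 2.18 (adjusted p = 5.33e-06 in edgeR, SE 0.26) and rank 870 from the top. Even after the rise GADD45G was at percentile 50.5 to 51.0 of detected genes.

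GADD45GIP1, the mitochondrial ribosome component, went the other way, from 58.0, 60.7 and 53.6 CPM in the replete to 16.8, 24.97 and 18.1 CPM in the depleted libraries. The highest depleted library, replicate 2, was still well under the lowest replete one. The mean fell from 57.5 ± 3.59 to 19.9 ± 4.40 CPM (SD, n = 3 per group), and the level in replete cells was 2.88 times that in depleted cells. The log2 fold change was −1.30 (SE 0.14, edgeR adjusted p = 1.58e-06), rank 2296 from the bottom, so falls of this size or more were common in these cells. In the GENCODE 29 annotation, exons of GADD45GIP1 overlap those of a counted gene, and no source used here says that strand was used in counting, so its reads may have been shared. Exons of GADD45A, GADD45B and GADD45G overlap no other annotated gene.

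**Figure D1:**
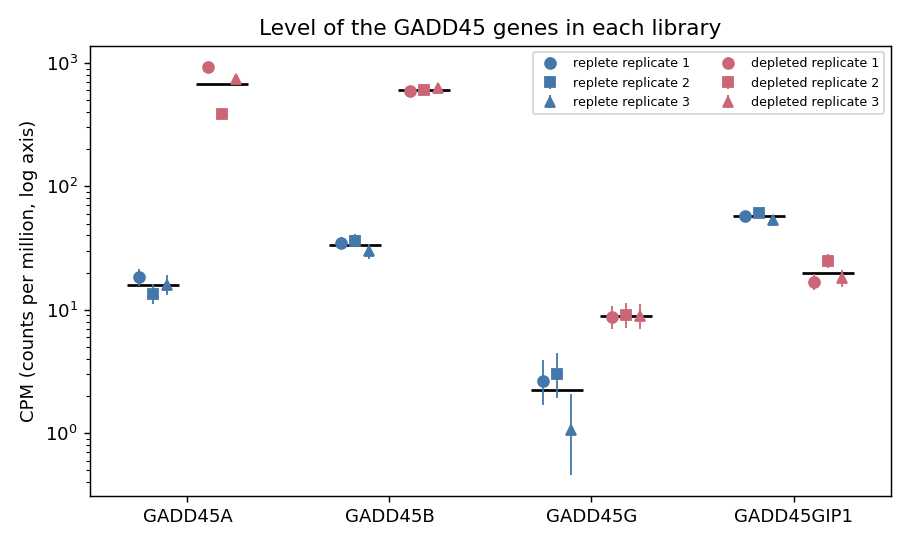
CPM (log axis) of the 4 members in each library, with exact 95% Poisson counting intervals as vertical lines and group means as horizontal lines. GADD45A, GADD45B and GADD45G are higher in all 3 depleted libraries (red) than in all 3 replete ones (blue), GADD45GIP1 is lower in all 3, and GADD45A alone of the 3 rising genes has a depleted library, replicate 2 at 383 CPM, far from the other 2.

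The directions of the members were the same under the other scalings. With library totals in place of trimmed-mean factors the median log2 fold change of all genes tested moved from −0.02 to −0.25, and those of the members were 5.41 for GADD45A, 4.16 for GADD45B, 1.96 for GADD45G and −1.53 for GADD45GIP1. The ratio of 2 members within a library needs no scaling at all and was taken for the 3 pairs in which both genes had at least 10 counts in every library. For each pair the smallest p that 3 libraries against 3 allow in an exact two-sided permutation test is 0.1, so none could reach 0.05.

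GADD45A counts were 0.524, 0.372 and 0.538 times those of GADD45B in the replete libraries, and 1.55, 0.638 and 1.18 times in the depleted libraries. GADD45B thus gave more counts than GADD45A in every replete library and in depleted replicate 2, while GADD45A gave more in depleted replicates 1 and 3. The log2 ratio was −1.09 ± 0.30 in replete and 0.08 ± 0.66 in depleted cells (SD, n = 3 per group), a difference of 1.16 (exact permutation p = 0.1, also 0.1 adjusted over the 3 pairs). Without depleted replicate 2 the difference was 1.52, and the groups did not overlap with or without it. How many reads a transcript gives can differ between genes, so the order of 2 genes in a library is one of counts and not of molecules.

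Against GADD45GIP1 both genes moved much further. The log2 ratio of GADD45A to GADD45GIP1 went from −1.86 ± 0.27 to 5.02 ± 0.96, and that of GADD45B to GADD45GIP1 from −0.77 ± 0.06 to 4.94 ± 0.31 (SD, n = 3 per group). GADD45GIP1 therefore gave more counts than either gene in every replete library and fewer in every depleted one. The differences of 6.88 and 5.72 each had an exact permutation p of 0.1, also after adjustment over the 3 pairs.

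**Figure D2:**
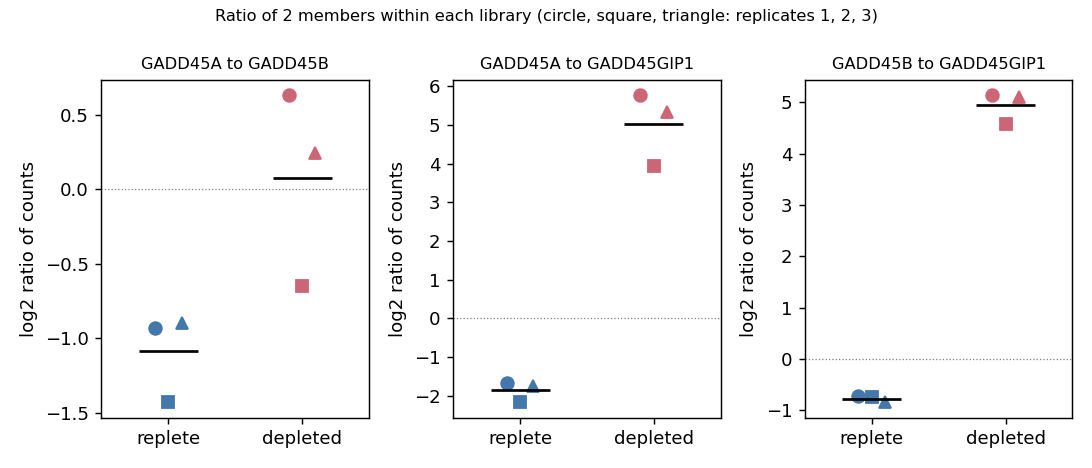
Log2 ratio of the counts of 2 members within each library, by group, with the group mean as a line (circle, square and triangle are replicates 1, 2 and 3). The groups are separate in all 3 panels, and depleted replicate 2 is the lowest depleted library in each, at −0.65 for GADD45A to GADD45B.

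The spread between depleted libraries set GADD45A apart from its relatives. Its coefficient of variation there was 40.1%, at percentile 98.2 of the 8507 tested genes with a mean of at least 10 CPM, whereas that of GADD45B was 2.44%, at percentile 5.05. In depleted replicate 2 the GADD45A level was 0.463 times the mean of the other depleted libraries, and 173 of the 8507 genes (2.03%) lay under 0.5 times there, against 5 genes in depleted replicate 1 and 10 in replicate 3. GADD45GIP1 was higher in that library, at 1.43 times the mean of the others, and GADD45B was at 0.989 times. Without depleted replicate 2 the log2 fold change of GADD45A was 5.92 (SE 0.15, edgeR adjusted p = 4.73e-07) and that of GADD45GIP1 was −1.50 (SE 0.10, edgeR adjusted p = 1.38e-15).

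CDKN1A, DDIT3 and PPP1R15A, stress genes named in any case, were more even over the depleted libraries than GADD45A. The kinase inhibitor gene CDKN1A, which encodes p21, stood at 889, 1134 and 919 CPM in depleted replicates 1, 2 and 3. DDIT3, which encodes the stress factor CHOP and was found in the same early screens for growth arrest and DNA damage genes, stood at 1227, 1250 and 1265 CPM. PPP1R15A, a phosphatase subunit also called GADD34, stood at 770.0, 833 and 757 CPM. In these 3 genes replicate 2 was level with or above the other depleted libraries. MYC, a growth-promoting transcription factor reported to repress GADD45A, was lowest in the same library as GADD45A, at 114, 57.4 and 96.1 CPM in the depleted and 63.4, 58.5 and 58.0 CPM in the replete libraries. Its rise (log2 fold change 0.80, adjusted p = 0.0193 in edgeR) came with overlapping groups. In edgeR it missed the threshold with library totals (adjusted p = 0.0742), with no count filter (0.0851), against a 1.5-fold change (0.141), without depleted replicate 3 (0.0527), without replete replicate 1 (0.0543) and without replete replicate 2 (0.0622), and without depleted replicate 2 the log2 fold change was 1.04. Over all its alternatives the adjusted p ran from 6.66e-15 to 0.141.

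A list of genes with a GADD or DDIT name held DDIT3, PPP1R15A and DDIT4, of which 2 rose and 1 fell. Over all genes tested 39.1% rose and 39.4% fell, so this count says little. PPP1R15A went from 16.8 ± 0.698 to 787 ± 40.8 CPM and DDIT3 from 121 ± 3.14 to 1247 ± 19.5 CPM (SD, n = 3 per group), with log2 fold changes of 5.78 and 3.598. PPP1R15A was thus the one of the 3 with a change as large as that of GADD45A. DDIT4, which encodes the mTOR inhibitor REDD1, stood at 456, 456 and 445 CPM in the replete and 124, 148 and 118 CPM in the depleted libraries, and fell by 1.57 on the log2 scale.

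**Figure D3:**
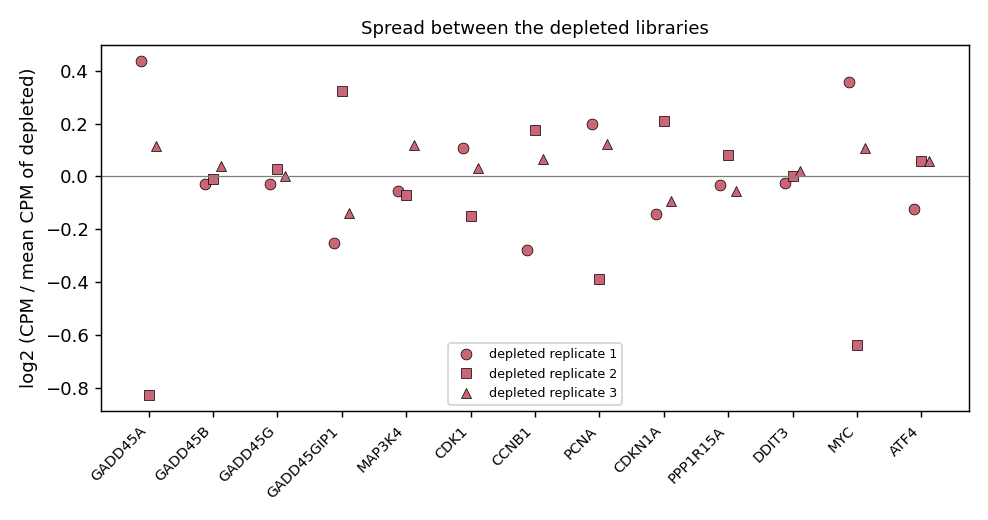
Log2 of each depleted library's CPM over the mean CPM of the 3 depleted libraries, for the 4 members and 9 of the genes named in any case. GADD45A and MYC have replicate 2 (square) far under the other libraries, while GADD45B, GADD45G and DDIT3 have 3 nearly equal libraries.

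The annotated transcripts of the GADD45 genes are alike in build. In GENCODE 29 the longest full-length coding transcripts of GADD45A, GADD45B and GADD45G have 4 exons each and code for 165, 160 and 159 residues, whereas GADD45GIP1 has 2 exons and codes for 222 residues. Their 3′ untranslated regions are 564, 658 and 476 bases long, shorter than the median of 995 bases over 19480 coding genes, and that of GADD45GIP1 is 1089 bases. The pentamer ATTTA, the core of AU-rich elements that shorten the life of many stress mRNAs, occurs 2 times in that of GADD45A and not in those of the other 3, and 49.7% of coding genes have 2 or more.

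RefSeq promoter windows on GRCh38.p14, from 250 bases before to 50 after the start, were found for 3 of the 4 members, all but GADD45A. They are shown because GADD45B and GADD45G rose while GADD45GIP1 fell. Capitals mark the TATA box TATAAA, the CCAAT box CCAAT and the E-box CACGTG, searched on both strands. The window of GADD45B lies at chr19:2475877-2476176 on the plus strand and that of GADD45G at chr9:89604762-89605061 on the plus strand. That of GADD45GIP1 lies at chr19:12957174-12957473 on the minus strand.
GADD45B: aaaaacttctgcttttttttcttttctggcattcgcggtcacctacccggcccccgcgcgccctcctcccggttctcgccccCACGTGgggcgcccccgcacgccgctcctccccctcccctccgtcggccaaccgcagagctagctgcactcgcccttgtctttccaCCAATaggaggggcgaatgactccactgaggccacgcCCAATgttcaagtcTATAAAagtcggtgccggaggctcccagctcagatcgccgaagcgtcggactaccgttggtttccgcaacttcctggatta
GADD45G: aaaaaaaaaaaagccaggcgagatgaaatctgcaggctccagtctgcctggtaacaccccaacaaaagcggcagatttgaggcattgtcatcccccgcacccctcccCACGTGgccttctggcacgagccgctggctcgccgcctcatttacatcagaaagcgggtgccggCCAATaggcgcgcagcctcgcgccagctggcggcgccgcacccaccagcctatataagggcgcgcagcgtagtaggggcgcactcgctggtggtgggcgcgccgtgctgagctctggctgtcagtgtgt
GADD45GIP1: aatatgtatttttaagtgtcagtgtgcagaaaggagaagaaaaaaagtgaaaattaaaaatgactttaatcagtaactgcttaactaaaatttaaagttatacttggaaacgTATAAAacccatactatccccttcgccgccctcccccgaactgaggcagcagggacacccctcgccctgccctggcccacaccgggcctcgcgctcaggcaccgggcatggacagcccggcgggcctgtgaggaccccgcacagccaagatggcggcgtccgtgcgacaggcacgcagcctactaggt

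The windows of GADD45B and GADD45G each hold 1 E-box and at least 1 CCAAT box, and that of GADD45GIP1 holds neither. The E-box is found in 7.26% and the CCAAT box in 34.6% of 35116 windows of this length. The E-box starts 168 bases before the start of GADD45B and 143 before that of GADD45G, and CCAAT boxes start 82 and 45 bases before the start of GADD45B and 79 before that of GADD45G. TATAAA, found in 11.5% of windows, starts 31 bases before the start of GADD45B and 138 before that of GADD45GIP1. Only exact matches were sought, and the window of GADD45G holds the similar stretch tatataag, which was not marked. The C/EBP-ATF response element TGATGNAA, in 3.62% of windows, had 1 match on the reverse strand in GADD45G, and the GC box GGGCGG, in 44.95%, had 1 match in GADD45GIP1. The AP-1 site TGANTCA, in 7.71%, and the CRE half-site TGACG, in 24.6%, had no match in the 3 windows. These are matches of letters in 3 windows, without that of GADD45A, and show no binding. Whether they are linked to the direction of change was not tested.

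The nearest counted coding genes on each side of the members did not all move with them, and some lie far off. GNG12 lies 13128 bases from GADD45A and SERBP1 254646 bases. LMNB2 lies 19126 bases from GADD45B, SEMA4D 106883 bases from GADD45G and CALR 8630 bases from GADD45GIP1. GNG12, a G protein subunit gene beside GADD45A, rose from 132 ± 9.01 to 199.5 ± 6.02 CPM (log2 fold change 0.83, adjusted p = 4.71e-07 in edgeR), while SERBP1, an RNA-binding protein gene on the other side, fell by 0.59 on the log2 scale. LMNB2, a nuclear lamin gene beside GADD45B, fell by 1.23, and SEMA4D, a semaphorin gene beside GADD45G, fell by 1.84. CALR, the endoplasmic reticulum chaperone calreticulin beside GADD45GIP1, fell by 0.18 (edgeR adjusted p = 0.0264). The other neighbours, GNG7, DIRAS2 and DAND5, had too few counts to be tested.

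Many known upstream regulators of GADD45 genes were higher in depleted cells. Of 17 listed, 16 could be tested, of which 11 rose and 3 fell, with a median log2 fold change of 0.86 against −0.02 over all genes tested, of which 39.1% rose and 39.4% fell. With library totals, 9 rose and 4 fell, where 4132 of all 12739 genes tested rose and 5924 fell. Against a 1.5-fold change (edgeR's glmTreat) 8 rose and 2 fell, where 3324 of all 12739 genes rose and 3455 fell. MYC, reported to repress GADD45A, is among the rises of the main fit, so a rise in this list has no single direction for the members. The largest rises were in EGR1, a zinc-finger factor of the immediate early response (log2 fold change 7.59), and FOXO3, a forkhead factor of stress and starvation, which rose from 11.1 ± 0.381 to 79.7 ± 11.9 CPM (log2 fold change 3.07, adjusted p = 2.22e-10 in edgeR). FOXO3 has a near-identical copy, so its counts are uncertain. ATF4, the main transcription factor of the amino acid response, rose by 1.46 (edgeR adjusted p = 4.68e-10). BRCA1, a repair factor that also regulates GADD45A, fell from 60.8 ± 6.39 to 15.4 ± 2.74 CPM (−1.76).

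Genes of the kinase cascade that GADD45 proteins act on passed the test in both directions. MAP3K4, the kinase they bind, stood at 14.5, 15.03 and 19.6 CPM in the replete and at 7.88, 7.79 and 8.88 CPM in the depleted libraries, and fell by 0.77 on the log2 scale (adjusted p = 0.000653, edgeR), but did not pass against a 1.5-fold change (adjusted p = 0.0805, edgeR's glmTreat). Downstream, MAP2K3, a kinase that activates p38, rose from 349 ± 26.4 to 3965 ± 315 CPM (log2 fold change 3.73, adjusted p = 6.67e-13 in edgeR), and the p38 effector kinase MAPKAPK2 rose by 1.602. MAP2K6, the close relative of MAP2K3, fell from 9.67 ± 1.42 to 1.15 ± 0.309 CPM (−2.85), and MAPK12, which encodes p38γ, fell by 3.09. Of 14 tested members of 16, 6 rose and 5 fell, with a median of −0.02, which to 2 decimals is also that of all genes. Over all genes tested, 39.1% rose and 39.4% fell. With library totals, 6 rose and 6 fell, where 4132 of all 12739 genes tested rose and 5924 fell.

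Among cell cycle partners of GADD45 proteins and genes of G2 control, more fell than rose. PCNA, the sliding clamp of DNA replication, fell from 176 ± 11.4 to 50.02 ± 10.3 CPM (log2 fold change −1.59, adjusted p = 2.75e-07 in edgeR). CCNB1, which encodes cyclin B1, fell by 1.53, and its kinase partner CDK1 by 0.43 (edgeR adjusted p = 0.000129), a fall that did not pass against a 1.5-fold change (adjusted p = 1, edgeR's glmTreat). The mitotic kinase PLK1 fell by 2.68 and the CDK1-activating phosphatase CDC25C by 2.25. Of 10 genes, 1 rose, which was CDKN1A, and 6 fell (median −0.89), against 39.1% rising and 39.4% falling over all genes tested. CDC25B, PKMYT1 and WEE1 did not pass. With library totals 1 rose and 8 fell, where 4132 of all 12739 genes tested rose and 5924 fell. Without depleted replicate 2, where PCNA was lowest at 38.3 CPM, 2 rose and 8 fell. With DESeq2 size factors 2 rose and 6 fell.

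GADD45A has been linked to DNA demethylation and repair, and genes of this list passed the test in both directions. TET2 and TET3, dioxygenases that oxidise methylated cytosine, rose by 2.61 and 2.30 on the log2 scale, TET2 from 9.16 ± 1.75 to 47.9 ± 5.14 CPM. Their relative TET1 fell from 10.3 ± 0.299 to 0.750 ± 0.146 CPM (log2 fold change −3.55, adjusted p = 1.94e-08 in edgeR), and UNG, a uracil glycosylase, fell by 2.74. Of 16 tested genes of 18, 6 rose and 5 fell (median 0.12), fewer called in all than the 78.6% of all genes tested. With library totals 6 of them rose and 6 fell, where 4132 of all 12739 genes tested rose and 5924 fell.

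For GADD45GIP1, the list of comparison was the large subunit of the mitochondrial ribosome. Of 49 listed genes, 48 were found and tested, of which 19 rose and 21 fell (median −0.14). Both counts were close to the 39.1% higher and 39.4% lower over all genes tested. In this main fit they set the subunit apart in neither direction. With library totals 12 rose and 24 fell, where 4132 of all 12739 genes tested rose and 5924 fell. Against a 1.5-fold change (edgeR's glmTreat) 3 rose and 14 fell, where 3324 of all 12739 genes rose and 3455 fell. In that setting the share that rose was smaller in the subunit than over all genes. MRPL17 fell from 75.6 ± 1.58 to 8.10 ± 1.61 CPM (log2 fold change −2.997) and MRPL12 by 1.67, while MRPL54 rose from 21.1 ± 1.25 to 60.3 ± 8.65 CPM (1.74). MRPL33 rose by 1.33 (edgeR adjusted p = 0.0168) but stood at 575, 257 and 500.4 CPM in depleted replicates 1, 2 and 3, so that its lowest depleted library was the one in which GADD45A was lowest. In edgeR MRPL33 lost its call without replete replicate 1 (adjusted p = 0.0575) or 2 (0.0506), and with replicate number as a block (0.0557).

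Partners of the GADD45GIP1 protein outside the ribosome gave 2 rises and 2 falls among 5 tested genes of 6 (median 0.02). This was close to the 39.1% higher and 39.4% lower over all genes tested. NFE2L2, which encodes the antioxidant factor NRF2, rose from 74.4 ± 6.78 to 267.5 ± 46.8 CPM (log2 fold change 2.07), and STAT3, a cytokine-activated factor, rose by 0.39 (edgeR adjusted p = 0.00288), a call lost with library totals (0.139) and against a 1.5-fold change. CDK2, a cell cycle kinase, fell by 1.36, and OXA1L, which inserts proteins into the inner mitochondrial membrane, fell by 0.64, a fall that did not pass against a 1.5-fold change. GADD45 proteins share a fold with the L7Ae family of RNA-binding proteins. Of the 7 L7Ae relatives 3 rose and 2 fell, where 39.1% of all genes tested rose and 39.4% fell. None passed the test against a 1.5-fold change (edgeR's glmTreat). Their log2 fold changes were much smaller than those of the GADD45 genes. They ran from −0.63 for the ribosomal protein gene RPL7A to 0.67 for RPP38, a subunit of RNase P. With library totals 1 rose and 3 fell, where 4132 of all 12739 genes tested rose and 5924 fell.

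**Figure D4:**
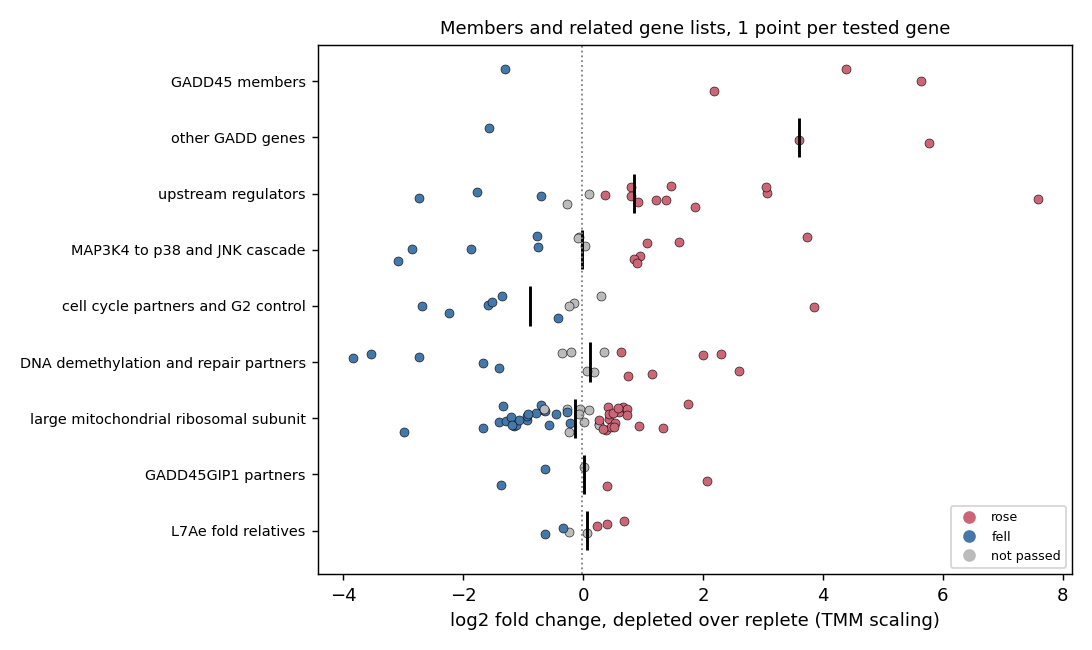
Log2 fold change, depleted over replete, of every tested gene of the members and the 8 related lists, coloured by call, with the list median as a black line and the median of all tested genes, −0.02, dotted. GADD45A at 5.63 and GADD45B at 4.39 lie beyond all points of the cascade, cell cycle, repair and ribosome lists, whose genes spread on both sides of 0.

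The genes whose profiles over the 6 libraries were most like each member were found by the distance between log2 CPM profiles, each centred on its mean, among tested genes with a mean of at least 10 CPM. Nearest to GADD45B were TNFRSF12A, the receptor of the cytokine TWEAK, at a distance of 0.245, RCAN1, an inhibitor of calcineurin, at 0.270, and CHIC2 at 0.332. TNFRSF12A stood at 65.1, 63.5 and 56.3 CPM in the replete and 1151, 949.6 and 1174 CPM in the depleted libraries. RCAN1 rose from 16.5 ± 1.41 to 298 ± 15.5 CPM (log2 fold change 4.40), close to the change of GADD45B.

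No gene came as near to GADD45A. The nearest were KLRC2, a receptor of natural killer cells, at 0.861 (0.253 to 0.775 CPM in replete libraries), ACVR1C, an activin receptor, at 0.951 and the homeobox gene DLX2 at 0.956. ACVR1C had 0.222 to 0.265 CPM in replete libraries, under the limit that a count of 0 allows, and 20.6 to 22.6 CPM in depleted ones. DLX2 rose from 3.26 ± 0.901 to 125 ± 12.2 CPM. Nearest to GADD45G were GPATCH3 at 0.619, GPR137 at 0.665 and THUMPD2 at 0.705.

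Nearest to GADD45GIP1 were BCKDK, the kinase that restrains branched-chain amino acid breakdown, at 0.134, the aldo-keto reductase AKR7A2 at 0.161 and NSMCE1, a subunit of the SMC5/6 complex, at 0.163. NSMCE1 stood at 62.5, 69.7 and 63.4 CPM in the replete and 17.1, 27.7 and 20.2 CPM in the depleted libraries, with replicate 2 the highest of the depleted ones as for GADD45GIP1. Of the 52 genes named by rule, 51 were found in GENCODE 29, and exons of 15 overlap a counted gene there, among them DDIT3, CDC25C, PLK1, CDK2, MAPK12, NFE2L2, RPL7A, RPP38, TNFRSF12A, KLRC2, GPATCH3, GPR137 and NSMCE1, so reads of these genes may have been shared too.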

How the data were processed

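Each deposited file gives the raw counts of 1 library over 25737 entries named by gene symbol. Per the labels, libraries were made with the Lexogen QuantSeq 3′ kit from 500 ng of RNA. Per the submitters' processing notes, Bowtie2, edgeR and hg19 were used, with no role given. The counting program, strand and annotation are not given in the sources used here.

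Counts of a symbol on several entries were summed. The filter filterByExpr, with a minimum count of 10 and a minimum total of 15, left 12739 genes. These were scaled with TMM (trimmed-mean) factors and tested with edgeR 4.0.16 in R 4.3.3 (robust quasi-likelihood, two-sided), with Benjamini-Hochberg adjustment and a threshold of 0.05. SE is the log2 fold change over the square root of F. CPM and ratios use library totals. On counts simulated from the mean levels and totals of these libraries (12611 genes) the fit called 86.8% of 91 genes changed by 1 on the log2 scale. It called 100% of 109 changed by 2, and 8 of its 196 calls were false. No other genes were changed there and all had the same spread beyond counting error, whereas 78.6% of genes passed in the real data. The simulation therefore does not give the share of false calls in these data. Ratios were tested with scipy 1.17.1. GENCODE 29 (GRCh38) and RefSeq tables differ in build from the counts and served for names, transcript features, overlaps, neighbours and promoter sequence.

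Named genes were the 4 members, 10 genes in any case, up to 2 called genes with the largest change per direction and list (mean of at least 5 CPM), and the 3 nearest genes of each member, some of which are not reported here. The chromosomal neighbours and the genes of the closing observations were added after values were seen. Members and lists were chosen with earlier results of these data known. Alternatives were other scalings, filters, leaving out each library, a block on replicate number, limma-voom (limma 3.58.1), DESeq2 1.42.0, glmTreat and the largest entry per symbol.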

Additional observations from a re-analysis of the deposited data

How the results depend on the processing

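All 4 members kept their direction and their call under every alternative in which they were tested; GADD45G was not tested under the filter on a mean of at least 10 CPM. Log2 fold changes ran from 5.36 to 5.92 for GADD45A, 4.16 to 4.43 for GADD45B, 1.86 to 2.41 for GADD45G and −1.53 to −1.18 for GADD45GIP1. Against a 1.5-fold change (glmTreat), 17 genes of the large mitochondrial ribosomal subunit were called (3 higher, 14 lower), 2 GADD45GIP1 partners, and 0 of the L7Ae relatives (0 also at an unadjusted p under 0.05, against 5 by DESeq2 and 6 by limma-voom). The glmTreat test asks for a larger change by construction, and 6779 of all 12739 genes tested passed it (3324 higher, 3455 lower). Of the other named genes, 744 values kept their call and 22 lost it, and none reversed. Same-numbered libraries did not deviate together beyond 0.1 in every pair (correlations of deviations 0.119, 0.0061 and 0.0366), and not every library correlated best with its own number. With the number as a replicate block 9940 genes passed, against 10012 without it. The members' log2 fold changes were then 5.58, 4.39, 2.20 and −1.32 in the order above. Their SEs were 0.16, 0.09, 0.27 and 0.12 with the block, against 0.46, 0.09, 0.26 and 0.14 without it. For GADD45A the edgeR adjusted p was 4.51e-08 with the block, and in both groups replicate 1 was its highest library and replicate 2 its lowest. Of the named genes MRPL33 alone missed the threshold with the block (log2 fold change 1.26, edgeR adjusted p = 0.0557). Leaving out libraries gave 9558 to 10625 genes. Depth limits GADD45G most, with 8 to 24 counts in replete libraries.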

Other observations

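Among the listed genes, some others shared the low level of GADD45A in depleted replicate 2; they were picked after their values were seen and have no test. MAPK9, which encodes the stress kinase JNK2, stood at 90.2, 29.1 and 62.9 CPM in depleted replicates 1, 2 and 3 and at 84.2, 70.8 and 68.1 CPM in the replete libraries. NR4A1, a nuclear receptor and partner of the GADD45GIP1 protein, stood at 86.4, 26.0 and 68.9 CPM in the depleted and at 68.8, 68.6 and 73.0 CPM in the replete libraries. MRPL32, of the mitochondrial ribosome, stood at 76.0, 17.9 and 63.3 CPM in the depleted libraries and at 92.1 to 100.1 CPM in the replete ones. None of the 3 passed the test over all libraries: the log2 fold change was −0.06 for MAPK9 (edgeR adjusted p = 0.906), 0.02 for NR4A1 (0.976) and −0.65 for MRPL32 (0.327). In all of these genes the order of the depleted libraries was that of GADD45A, with replicate 1 the highest and replicate 2 the lowest.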
